A study of Homo sapiens with 12 samples.

Results

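The genes described here are a list of 35 targets and partners of the transcription factor ATF4, in 6 functions: stress factors and regulators, enzymes of serine, glycine and one-carbon metabolism, other enzymes of amino acid metabolism, amino acid transporters, secreted and surface proteins, and cytosolic tRNA synthetases. They were matched by symbol to the Ensembl identifiers of both deposited tables, and all 35 of the 60616 genes in the tables were found and passed the filter on low counts in both experiments. RNA-seq was performed on 12 libraries of Du145, an epithelial cell line of prostate cancer. In the first experiment, 2 libraries each came from Du145-CbzR and Du145-DtxR, lines selected for resistance to the taxanes cabazitaxel and docetaxel, and from the parental cells, Du145-P, which were passaged in parallel; no siRNA was used. Selection used exposures of 72 h, with the dose doubled stepwise between 1 and 125 nM, and each line is a single selected line. In the second experiment, Du145-DtxR cells received siBRPF1 or siControl for 24 h and RNA was taken 48 h after the medium was changed (3 libraries each); BRPF1 is a scaffold subunit of a histone acetyltransferase complex, and all 6 of these libraries share the docetaxel-resistant background.

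ATF4 is a transcription factor of the integrated stress response. Kinases that sense amino acid shortage, unfolded proteins, double-stranded RNA or heme deficiency phosphorylate the translation factor eIF2alpha, which lowers most protein synthesis but favors translation of the ATF4 mRNA. ATF4 protein then binds DNA together with C/EBP family members and raises genes that synthesize, import and charge amino acids onto tRNA, while targets such as DDIT3 (CHOP) and TRIB3 belong to the arm linked to cell death and feedback. Because ATF4 is controlled mainly by translation, the mRNA values below do not measure its protein.

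The libraries held between 27512422 and 30593573 estimated counts in the first experiment and between 16667822 and 17306275 in the second. Levels are given in CPM (estimated counts per 1000000 of the library, after TMM scaling), and differences as log2 fold changes with standard errors (SE) from edgeR's quasi-likelihood test. A gene was called higher or lower at an adjusted p under 0.05, over 18218 genes in the lines and 15704 in the siRNA experiment, where the median log2 fold change over all genes lay between -0.02 and 0.01 in each comparison. BRPF1 itself had 8.96, 8.67 and 8.19 CPM with siBRPF1, against 29.4, 30.6 and 31.0 CPM with siControl. The epithelial markers KRT8, KRT18, KRT19 and EPCAM were detected in every library. KRT19 split the lines, with averages of 6.37 CPM in Du145-CbzR, 178 CPM in Du145-DtxR and 33.2 CPM in Du145-P. Its log2 fold changes against Du145-P were 2.42 in Du145-DtxR and -2.38 in Du145-CbzR. KRT18 was higher in both resistant lines (0.18 in Du145-DtxR, 0.81 in Du145-CbzR), and KRT8 was lower in both (-0.31 and -0.77). EPCAM was higher in Du145-CbzR (0.44) and not called in Du145-DtxR (-0.06). CDH1 averaged under 2 CPM in both resistant lines, against 36.9 CPM in Du145-P. With siBRPF1, CDH1 averaged 0.508 CPM, against 3.59 CPM with siControl, a log2 fold change of -2.82. KRT18 (0.75) and KRT19 (0.43) were higher with siBRPF1, and KRT8 and EPCAM were not called. Of 8 markers of blood, vessel, stromal and neuroendocrine cells, PTPRC, PECAM1, VWF and CHGA stayed under 1 CPM in every library, and the other 4 were detected and differed between lines. COL3A1 averaged 17.9 CPM in Du145-CbzR, 0.258 CPM in Du145-DtxR and 10.9 CPM in Du145-P. COL1A1 averaged 8.25 CPM in Du145-CbzR, 2.23 CPM in Du145-DtxR and 11.5 CPM in Du145-P, SYP averaged 2.39 CPM in Du145-CbzR, 2.25 CPM in Du145-DtxR and 7.79 CPM in Du145-P, and ACTA2 stayed between 2.26 and 3.87 CPM on average. The summed level of the 8 lay between 8.12 and 33.4 CPM in the libraries of the lines, and their part in the members' values was not tested. Mitochondrial genome transcripts took 12.1 and 12.7% of all counts in Du145-CbzR, 8.91 and 9.48% of them in Du145-DtxR and 14.3 and 15.3% of them in Du145-P, and the counts of members called were the same in a fit without them. The methods of the study call the replicates biological and do not say how the cultures were separated, so a p-value here refers to the spread among the deposited libraries.

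A few of the promoters are shown first because ATF4 and C/EBP proteins are known to bind a composite element. It is written here as the letters TGATGNAA, read on either strand. The list was not chosen by these letters, but it holds targets and partners of ATF4. A raised share of the element is therefore no independent support for the list. Of the 29 members with a promoter in the RefSeq table (GRCh38.p14, 250 bases before to 50 after the start), 9, or 31.0%, held TGATGNAA, against 3.67% of all 27305 promoters of the same length. Among the 12249 promoters of genes tested in the lines, the share was 1.67%. The exact letters TGATGCAA were in 6 of the 29, or 20.7%, against 0.923% of all promoters and 0.474% of those of tested genes. The windows below hold the element in capitals, as read on the strand of the gene, with up to 20 bases to each side; TTGCATCA is TGATGCAA on the other strand. The first 4 belong to genes that were lower with siBRPF1, and the last 3 to genes that were not.
CHAC1 (chr15:40953242-40953289, plus strand): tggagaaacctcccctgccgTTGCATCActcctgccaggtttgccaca
ASNS (chr7:97872449-97872496, minus strand): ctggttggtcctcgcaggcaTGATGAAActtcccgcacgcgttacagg
AARS1 (chr16:70289666-70289713, minus strand): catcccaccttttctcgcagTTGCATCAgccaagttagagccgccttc
ATF3 (chr1:212565196-212565243, plus strand): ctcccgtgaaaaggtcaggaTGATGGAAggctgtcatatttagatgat
TARS1 (chr5:33440947-33440994, plus strand): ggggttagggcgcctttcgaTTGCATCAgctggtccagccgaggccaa
CARS1 (chr11:3057398-3057445, minus strand): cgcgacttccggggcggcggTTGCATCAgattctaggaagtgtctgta
NARS1 (chr18:57621795-57621842, minus strand): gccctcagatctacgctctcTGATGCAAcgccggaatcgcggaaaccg
GOT1 and SLC3A2 were the other members with a match. A match is a description of these letters and does not show binding. NUPR1, PSPH, SHMT2, PYCR1, SLC7A11 and LARS1 were not in the promoter table.

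Most of the list was higher in the docetaxel-resistant line. In Du145-DtxR against Du145-P, 31 of 35 members were higher and 2 were lower, CEBPB and PCK2, where 31.1% of all genes tested rose and 32.0% fell. The median log2 fold change of the 35 was 0.81, and 6 members (DDIT3, STC2, CHAC1, SESN2, WARS1 and TRIB3) had a log2 fold change above 1, as did 6.62% of all genes, while 13.8% of all genes were lower by as much. In Du145-CbzR against Du145-P the list was split, with 10 members higher and 12 lower (24.4 and 26.3% of all genes) and a median of -0.09. A log2 fold change below -1 was measured for 4 members there (CEBPB, CTH, ASNS and DDIT4), against 7.88% of all genes, and 3.74% of all genes were higher by as much. The test of the difference between the resistant lines gave 32 members lower in Du145-CbzR than in the docetaxel line, 15 of them by more than 1 on the log2 scale, against 31.8 and 8.71% of all genes. By edgeR 0 members were higher, and the count was also 0 with p unadjusted (under 0.05) and with DESeq2, where 31.2% of all genes were higher and 12.2% by more than 1. The comparisons with Du145-P share its libraries, so they are set side by side here without a measure of their likeness. In these bulk libraries, more RNA per cell and more cells that express a gene cannot be told apart.

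**Figure D1:**
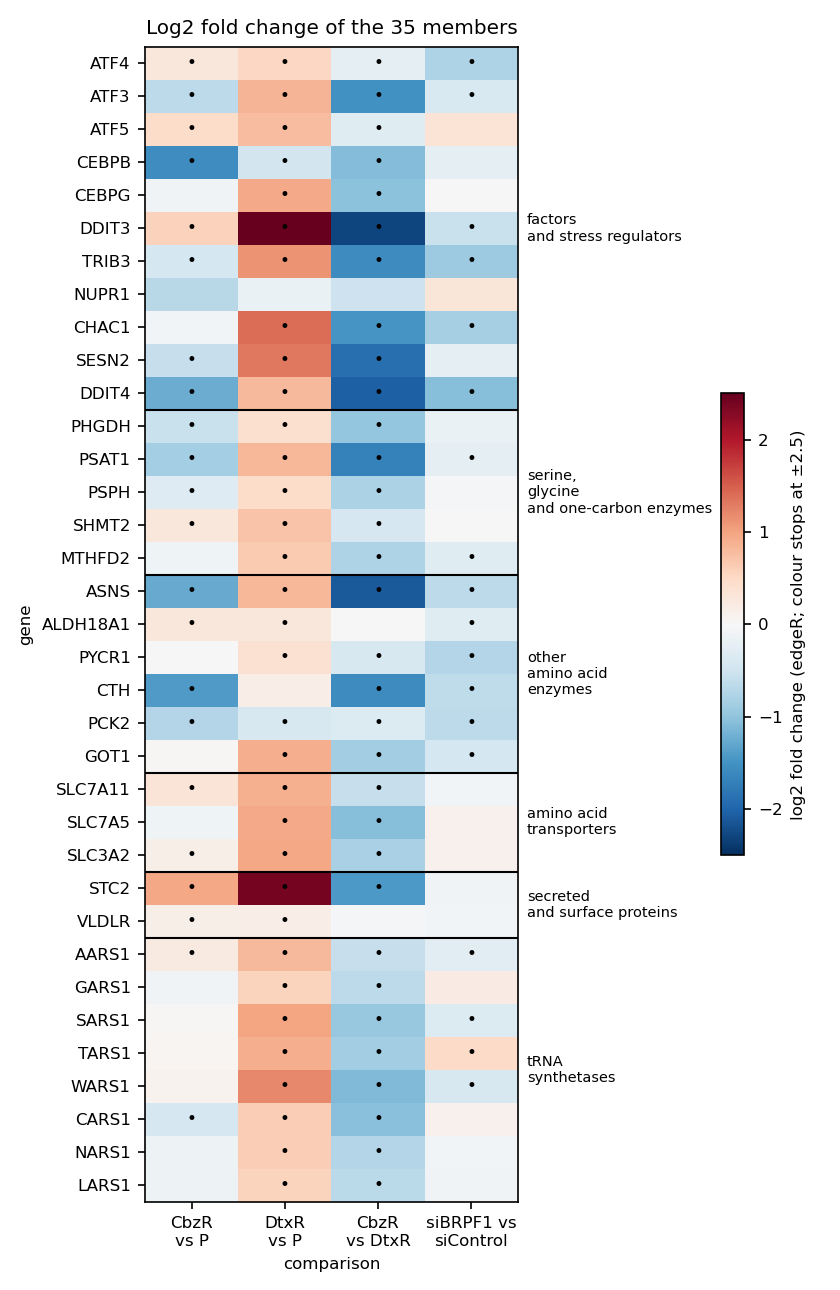
Log2 fold changes of the 35 members (rows, by function) in 4 comparisons (columns); red is higher and blue lower in the first-named group, and a dot marks an adjusted p under 0.05. The DtxR vs P column is red for all but 3 members, and the CbzR vs DtxR column is below 0 for all 35.

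ATF4 (chromosome 22, 39519695 to 39522683, GRCh38) had 438 and 441 CPM in Du145-CbzR, 512 and 518 CPM in Du145-DtxR and 352 and 370.4 CPM in Du145-P. The 3 lines did not overlap, with Du145-DtxR highest and Du145-CbzR between it and Du145-P. The log2 fold change was 0.51 (SE 0.05, adjusted p = 1.34e-06) in Du145-DtxR and 0.28 (SE 0.05, adjusted p = 3.16e-04) in Du145-CbzR against Du145-P, and -0.23 (SE 0.05, adjusted p = 9.53e-04) in Du145-CbzR against Du145-DtxR. The mRNA of the factor was thus higher in both resistant lines, while 10 members rose and 12 fell in Du145-CbzR. For 9 members the resistant lines changed in opposite directions, with Du145-DtxR higher and Du145-CbzR lower than Du145-P and a call between the resistant lines; 5.73% of all genes tested did so, 4.56% did the reverse, and the 2 shares make 10.3%.

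Among the stress factors and regulators, 9 of 11 were higher in Du145-DtxR than in parental cells. DDIT3 (chromosome 12, 57516588 to 57521737), which encodes the proapoptotic factor CHOP, had 11.9 and 12.2 CPM in Du145-CbzR, 62.2 and 56.2 CPM in Du145-DtxR and 7.47 and 8.56 CPM in Du145-P. Every Du145-DtxR library was above every other, and the log2 fold changes were 2.89 (SE 0.09, adjusted p = 1.63e-10) in Du145-DtxR and 0.58 (SE 0.10, adjusted p = 3.97e-04) in Du145-CbzR. DDIT3 overlaps MARS1 on the opposite strand, and since the sources used here do not state whether counting used strand, reads of the overlap cannot be assigned for certain. MARS1, the methionyl-tRNA synthetase, had a log2 fold change of 0.69 in Du145-DtxR and 0.28 in Du145-CbzR, at 233 ± 6.95 CPM in Du145-CbzR, 311 ± 12.8 CPM in Du145-DtxR and 192 ± 9.25 CPM in Du145-P (SD, n = 2 each).

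TRIB3, a pseudokinase induced by ATF4 and CHOP that restrains ATF4, had 38.5 and 40.2 CPM in Du145-CbzR, 122 and 111 CPM in Du145-DtxR and 50.2 and 56.2 CPM in Du145-P. CHAC1, which degrades glutathione, had 11.3 and 12.4 CPM in Du145-CbzR, 33.6 and 32.2 CPM in Du145-DtxR and 11.5 and 13.3 CPM in Du145-P. Du145-DtxR was above both other lines for each gene, while Du145-CbzR lay below Du145-P for TRIB3 and overlapped it for CHAC1. The log2 fold changes in Du145-DtxR were 1.13 (SE 0.07, adjusted p = 4.33e-08) for TRIB3 and 1.41 (SE 0.09, adjusted p = 4.41e-08) for CHAC1, and those in Du145-CbzR were -0.43 (SE 0.07, adjusted p = 3.55e-04) and -0.07 (SE 0.09, adjusted p = 0.57).

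SESN2 and DDIT4 encode inhibitors of mTORC1 signaling, SESN2 as a leucine sensor and DDIT4 through the TSC complex. SESN2 had 12.8 and 12.8 CPM in Du145-CbzR, 50.8 and 43.9 CPM in Du145-DtxR and 18.5 and 19.6 CPM in Du145-P. DDIT4 had 36.6 and 37.1 CPM in Du145-CbzR, 169 and 135 CPM in Du145-DtxR and 88.4 and 85.1 CPM in Du145-P. For both genes all Du145-DtxR libraries were above, and all Du145-CbzR libraries below, those of Du145-P. The lines differed by -1.89 (SE 0.08, adjusted p = 3.27e-09) for SESN2 and by -2.04 (SE 0.09, adjusted p = 2.78e-09) for DDIT4, as Du145-CbzR against Du145-DtxR.

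ATF3, a repressor of the same bZIP class as ATF4, showed this split as well, with 10.4 ± 0.706 CPM in Du145-CbzR, 29.6 ± 1.22 CPM in Du145-DtxR and 16.3 ± 0.431 CPM in Du145-P (SD, n = 2 each). CEBPG, a partner of ATF4 in heterodimers, averaged 96.6 ± 1.28 CPM in Du145-CbzR, 197 ± 4.80 CPM in Du145-DtxR and 103 ± 6.02 CPM in Du145-P; it was higher in Du145-DtxR (log2 fold change 0.94) and was not called in Du145-CbzR (-0.09, adjusted p = 0.17). ATF5, whose translation is regulated like that of ATF4, was higher in both resistant lines (0.77 in Du145-DtxR, 0.47 in Du145-CbzR); it overlaps NUP62 on the opposite strand, a gene at 115 CPM on average over the lines against 12.4 CPM for ATF5. CEBPB, another partner, was the one member of this function that fell in Du145-DtxR, with 29.5 and 30.7 CPM in Du145-CbzR, 71.9 and 56.4 CPM in Du145-DtxR and 92.5 and 84.9 CPM in Du145-P. It was highest in Du145-P, and its log2 fold changes were -0.47 (SE 0.09, adjusted p = 7.96e-04) in Du145-DtxR and -1.56 (SE 0.10, adjusted p = 1.21e-07) in Du145-CbzR. NUPR1, a small stress-induced chromatin protein, was between 0.877 and 1.92 CPM in the 6 libraries of the lines and was not called in any of the 4 comparisons.

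All 5 enzymes of serine, glycine and one-carbon metabolism were higher in Du145-DtxR than in parental cells, and 3 of them were lower in Du145-CbzR than in parental cells. These 3 are the enzymes that make serine from a glycolytic intermediate. PSAT1 (chromosome 9, 78297125 to 78330093), its aminotransferase, had 219 and 231 CPM in Du145-CbzR, 726 and 726 CPM in Du145-DtxR and 406 and 405 CPM in Du145-P. The libraries of each line lay close together and the lines did not overlap, with log2 fold changes of 0.84 (SE 0.05, adjusted p = 1.95e-08) in Du145-DtxR and -0.85 (SE 0.05, adjusted p = 4.41e-08) in Du145-CbzR. PHGDH, the first enzyme of the route, averaged 106 ± 2.91 CPM in Du145-CbzR, 207 ± 18.97 CPM in Du145-DtxR and 156 ± 8.56 CPM in Du145-P (SD, n = 2 each), or 0.41 and -0.56 for Du145-DtxR and Du145-CbzR against Du145-P on the log2 scale. PSPH, the phosphatase that ends it, averaged 30.1 ± 0.706 CPM in Du145-CbzR, 52.3 ± 4.94 CPM in Du145-DtxR and 37.8 ± 2.40 CPM in Du145-P, or 0.47 in Du145-DtxR and -0.33 in Du145-CbzR, where the call was lost without the second Du145-P library (adjusted p = 0.056). The mitochondrial folate enzymes did not show this split. SHMT2, which splits serine into glycine and a one-carbon unit, was higher in both resistant lines (0.71 in Du145-DtxR, 0.29 in Du145-CbzR), and MTHFD2, which oxidizes that unit, was higher in Du145-DtxR (0.66) and not called in Du145-CbzR (-0.10, adjusted p = 0.074).

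The 6 other enzymes of amino acid metabolism did not move as one, with 4 higher and 1 lower in Du145-DtxR, and 1 higher and 3 lower in Du145-CbzR. ASNS (chromosome 7, 97851677 to 97872542), which makes asparagine and is a classic target of the amino acid response, had 49.3 and 51.99 CPM in Du145-CbzR, 228 and 209 CPM in Du145-DtxR and 120.3 and 124 CPM in Du145-P. Du145-DtxR was highest and Du145-CbzR lowest without overlap, with log2 fold changes of 0.84 (SE 0.05, adjusted p = 7.60e-08) in Du145-DtxR and -1.27 (SE 0.06, adjusted p = 1.02e-08) in Du145-CbzR against Du145-P. CTH, which makes cysteine in transsulfuration, had 10.6 and 8.42 CPM in Du145-CbzR, 29.1 and 27.6 CPM in Du145-DtxR and 26.7 and 23.99 CPM in Du145-P. It was low in both Du145-CbzR libraries, with a log2 fold change of -1.42 (SE 0.10, adjusted p = 4.27e-07) there and 0.16 (SE 0.09, adjusted p = 0.15) in Du145-DtxR. GOT1, the cytosolic aspartate aminotransferase, was higher in Du145-DtxR (0.90) and not called in Du145-CbzR (0.03, adjusted p = 0.73). The proline enzymes ALDH18A1 and PYCR1 were higher in Du145-DtxR by smaller amounts (0.29 and 0.39), and in Du145-CbzR only the value of ALDH18A1 (0.28) was called. PCK2, the mitochondrial form of phosphoenolpyruvate carboxykinase, was lower in both resistant lines, with 39.8 and 37.1 CPM in Du145-CbzR, 51.9 and 45.3 CPM in Du145-DtxR and 60.8 and 67.3 CPM in Du145-P. All libraries of the resistant lines lay below those of Du145-P, at -0.40 (SE 0.08, adjusted p = 7.23e-04) in Du145-DtxR and -0.73 (SE 0.08, adjusted p = 1.02e-05) in Du145-CbzR.

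For some members, genes nearby on the chromosome moved in the same direction. Of the 33 members called in Du145-DtxR against Du145-P, the tested genes that start within 5 Mb had a median of the same sign for 14, and past 0.25 on the log2 scale, a limit chosen after the values were seen, for 6 (CEBPB, PHGDH, PCK2, SLC7A11, VLDLR and LARS1), while 6 others had a median past 0.25 of the other sign. Of the 22 called in Du145-CbzR against Du145-P, 14 had neighbors of the same sign, past 0.25 for DDIT3, PSAT1, SHMT2, ASNS, STC2 and VLDLR, and none had a median past 0.25 of the other sign. Of the 32 called in Du145-CbzR against Du145-DtxR, 14 had neighbors of the same sign. Their median was past 0.25 for 3 (PSAT1, ASNS and CTH), and past it with the other sign for 9. With siBRPF1 the sign was the same for 6 of 18, and 0 medians were past 0.25. Around ASNS, the 135 tested genes that start within 5 Mb had a median log2 fold change of -1.07 in Du145-CbzR against Du145-P, with 109 lower and 4 higher, beside -1.27 for ASNS. The same neighbors had a median of -0.16 in Du145-DtxR against Du145-P, beside 0.84 for ASNS, and -0.78 in Du145-CbzR against Du145-DtxR, beside -2.11. Windows of 1 and 10 Mb gave medians of -1.07 and -1.04 for Du145-CbzR against Du145-P. Around PCK2 (chromosome 14, 24094053 to 24110598), 88 of 111 neighbors were lower in Du145-DtxR, with a median of -1.02 beside -0.40 for PCK2, whereas their median was 0.08 in Du145-CbzR beside -0.73. Around PSAT1, 14 of 19 neighbors were lower in Du145-CbzR, with a median of -0.53 beside -0.85. For PHGDH, 21 of 34 neighbors were higher and 8 lower in Du145-DtxR, with a median of 0.31 beside 0.41. Within 1 Mb of PHGDH, 9 of 10 were higher there, with a median of 0.79. In Du145-CbzR against Du145-P these windows of 5 and 1 Mb had medians of 0.07 and -0.01, beside -0.56 for PHGDH. Around LARS1, 50 of 86 neighbors were higher in Du145-DtxR, with a median of 0.47 beside 0.56, and around SHMT2, 84 of 161 were higher in Du145-CbzR, with a median of 0.28 beside 0.29. The 156 neighbors of DDIT3 had a median of -0.35 in Du145-DtxR beside 2.89, and of 0.28 in Du145-CbzR beside 0.58. The 74 neighbors of STC2 had a median of -0.02 in Du145-DtxR beside 2.40, and of 0.30 in Du145-CbzR beside 0.96. What part of a member's value is shared with its neighbors was not tested.

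**Figure D2:**
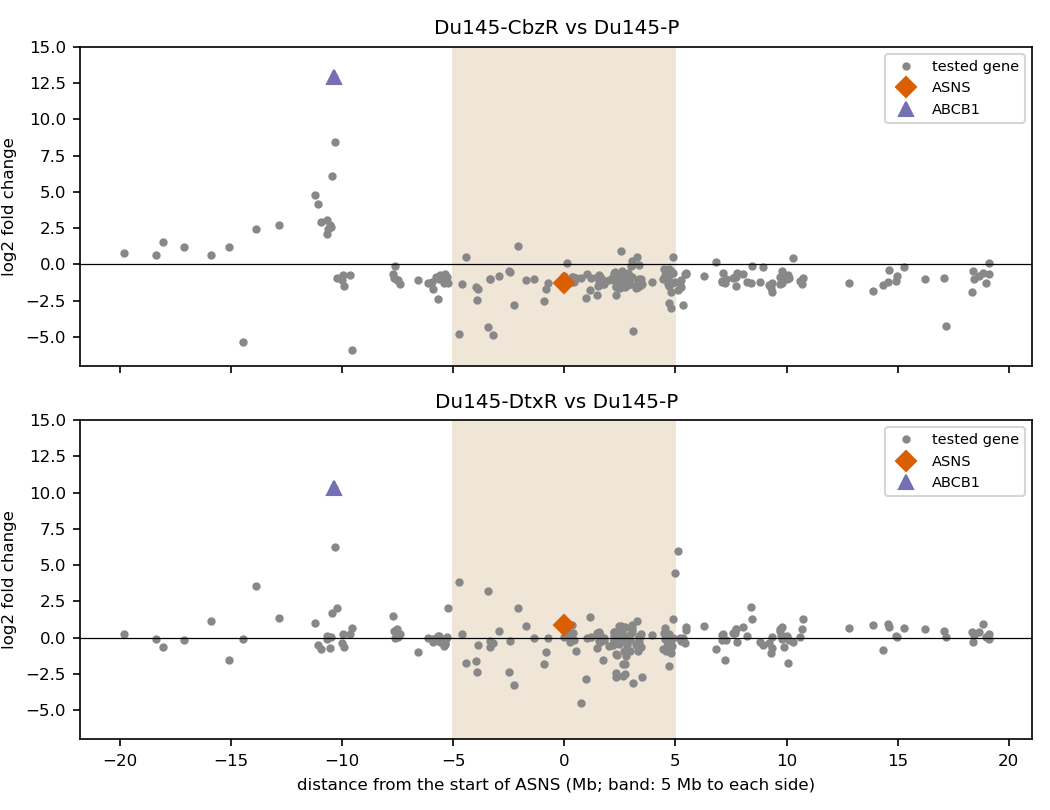
Log2 fold change of tested genes against their distance from the start of ASNS (Mb), for Du145-CbzR (top) and Du145-DtxR (bottom) against Du145-P; the band marks 5 Mb to each side and the triangle ABCB1, the gene of a drug exporter. Most genes in the band sit near -1 in the top panel, with ASNS at -1.27 among them, whereas in the bottom panel they spread around 0 and ASNS is at 0.84.

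All 3 amino acid transporters of the list were higher in Du145-DtxR. SLC7A11, the cystine importer, averaged 208 ± 5.24 CPM in Du145-CbzR, 309 ± 3.16 CPM in Du145-DtxR and 167 ± 4.13 CPM in Du145-P (SD, n = 2 each). SLC7A5, the light chain of the importer of leucine and other large neutral amino acids, averaged 307 ± 8.12 CPM in Du145-CbzR, 639 ± 27.6 CPM in Du145-DtxR and 330.1 ± 25.2 CPM in Du145-P. SLC3A2, the heavy chain that both share, averaged 117 ± 2.42 CPM in Du145-CbzR, 206 ± 2.16 CPM in Du145-DtxR and 105 ± 5.28 CPM in Du145-P. Their log2 fold changes in Du145-DtxR were close to each other, at 0.89, 0.95 and 0.97. In Du145-CbzR, SLC7A11 (0.32) and SLC3A2 (0.15) were higher than in Du145-P and SLC7A5 was not called (-0.11, adjusted p = 0.16); the call of SLC3A2 was lost when either Du145-CbzR library or the first Du145-P library was left out (adjusted p between 0.073 and 0.15).

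STC2 (chromosome 5, 173314723 to 173328447), a secreted glycoprotein of the stress response, had 149 and 152 CPM in Du145-CbzR, 415 and 399 CPM in Du145-DtxR and 76.7 and 77.9 CPM in Du145-P. It was the member raised furthest in Du145-CbzR, yet there it stayed well below Du145-DtxR, and the log2 fold changes against Du145-P were 0.96 (SE 0.05, adjusted p = 2.24e-08) in Du145-CbzR and 2.40 (SE 0.05, adjusted p = 8.59e-12) in Du145-DtxR. VLDLR, the very low density lipoprotein receptor, changed little, with 0.16 in Du145-DtxR and 0.14 in Du145-CbzR; the call in Du145-CbzR was lost with DESeq2 (adjusted p = 0.092) and with any library of Du145-CbzR or Du145-P left out (between 0.073 and 0.22), and that in Du145-DtxR without the first library of Du145-DtxR or Du145-P (0.064 and 0.063).

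**Figure D3:**
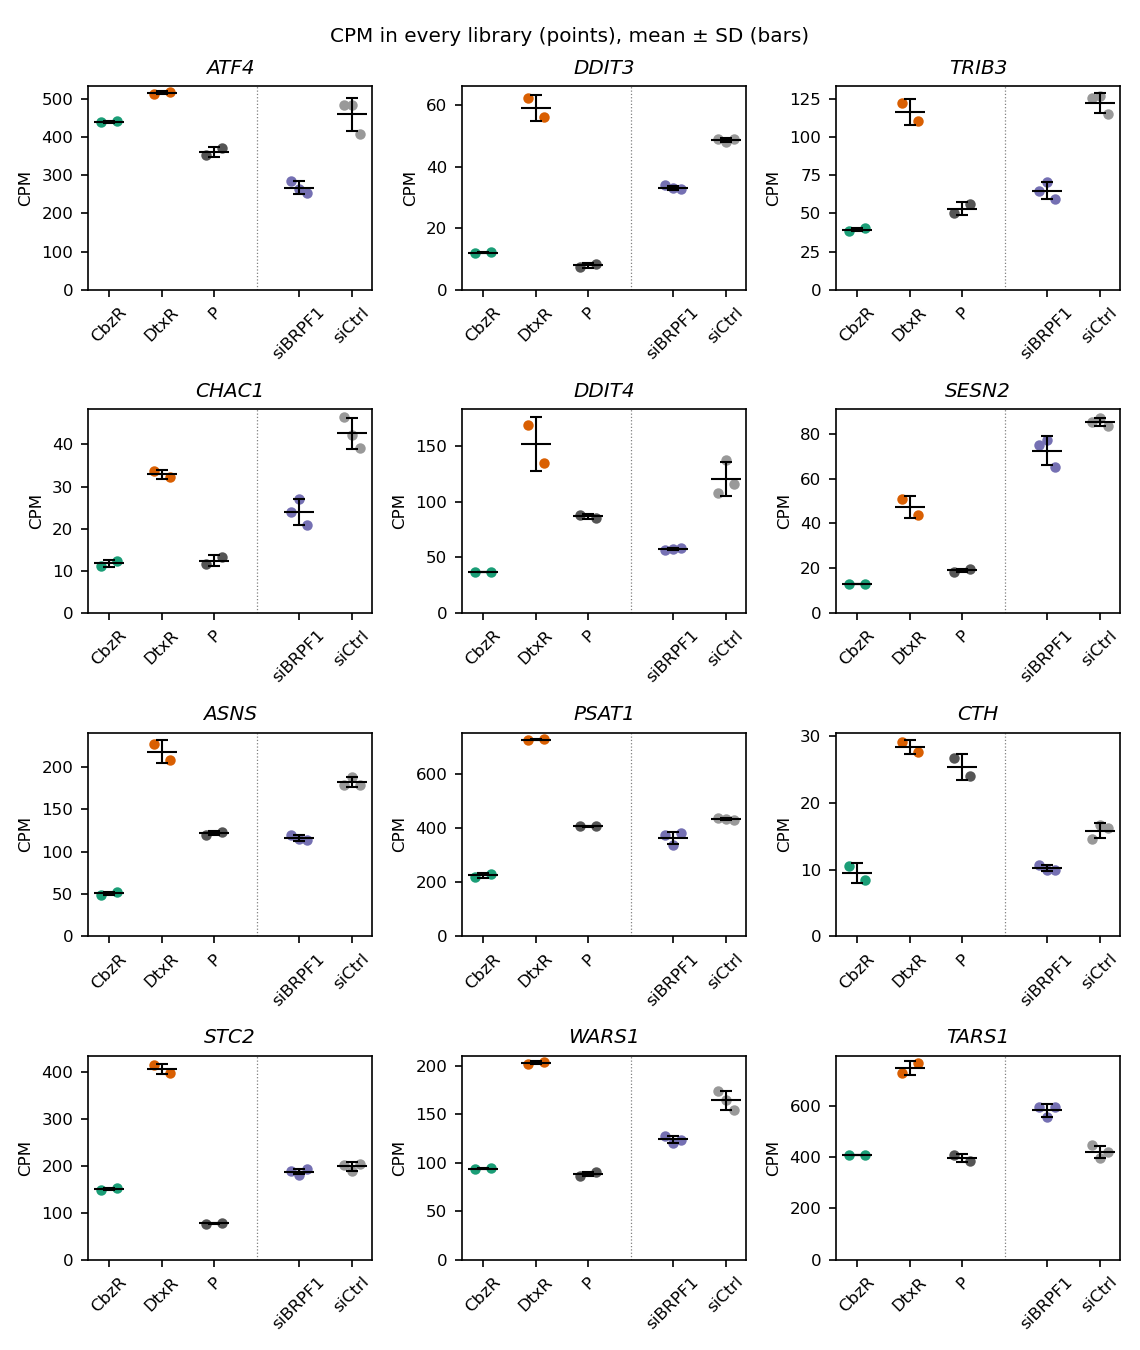
CPM of 12 members in every library (points), with the mean and SD (bars), for Du145-CbzR, Du145-DtxR and Du145-P and, right of the dotted line, for siBRPF1 and siControl in Du145-DtxR; the experiments were scaled apart. Among the lines, all 12 have their highest mean in Du145-DtxR. TRIB3, DDIT4, SESN2, ASNS, PSAT1 and CTH are called lower in Du145-CbzR than in parental cells. TARS1 is the only one of the 12 that is called higher with siBRPF1.

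The tRNA synthetases of the list, which charge tRNAs with their amino acids in the cytosol, were all 8 higher in Du145-DtxR than in parental cells, and all 8 were lower in Du145-CbzR than in the docetaxel line. WARS1, for tryptophan, had 93.5 and 94.1 CPM in Du145-CbzR, 202 and 204 CPM in Du145-DtxR and 86.6 and 89.8 CPM in Du145-P. Its Du145-DtxR libraries stood apart from the other lines, with a log2 fold change of 1.20 (SE 0.05, adjusted p = 1.14e-09) in Du145-DtxR and 0.09 (SE 0.05, adjusted p = 0.14) in Du145-CbzR. TARS1 (chromosome 5, 33440696 to 33468091), for threonine, had 409.9 and 409.6 CPM in Du145-CbzR, 729.9 and 769 CPM in Du145-DtxR and 408 and 386 CPM in Du145-P. Here Du145-CbzR did not pass the test against Du145-P (0.05, adjusted p = 0.47), and Du145-DtxR was higher by 0.92 on the log2 scale. The other 6 were higher in Du145-DtxR by 0.56 (LARS1) to 0.99 (SARS1) on the log2 scale. In Du145-CbzR against Du145-P, AARS1, for alanine, was higher (0.23), CARS1, for cysteine, was lower (-0.42), and the other 6 were not called, with values between -0.12 and 0.09.

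The other synthetase genes were read from the same fits for comparison. Of 12 other cytosolic synthetases, 11 were higher in Du145-DtxR against Du145-P, with a median of 0.73 beside 0.72 for the 8 in the list, and QARS1, for glutamine, was lower (-0.82). In Du145-CbzR against Du145-P, however, 9 of these 12 were higher and 2 lower (median 0.25), beside 1 higher and 1 lower of the 8 in the list (median -0.02). VARS1, for valine, was the one raised furthest in Du145-DtxR, with 128 ± 2.90 CPM in Du145-CbzR, 255 ± 10.7 CPM in Du145-DtxR and 106 ± 7.46 CPM in Du145-P (SD, n = 2 each). IARS1, for isoleucine, split like ASNS, with 190.4 ± 5.59 CPM in Du145-CbzR, 657 ± 1.82 CPM in Du145-DtxR and 329.8 ± 0.264 CPM in Du145-P, or 0.99 in Du145-DtxR and -0.79 in Du145-CbzR against Du145-P. Among 17 mitochondrial synthetases, encoded by genes of their own, Du145-DtxR had 11 higher and 2 lower (median 0.27), and 11 were higher in Du145-CbzR (median 0.31). Over all genes tested, 31.1% were higher and 32.0% lower in Du145-DtxR against Du145-P, and 24.4 and 26.3% in Du145-CbzR. Between the resistant lines, 5 mitochondrial synthetases were lower and 6 higher in Du145-CbzR than in the docetaxel line, which is near the 31.8% lower and 31.2% higher over all genes tested, and of the 12 other cytosolic ones 9 were lower and 1 higher. The difference between these groups of synthetases was not tested.

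**Figure D4:**
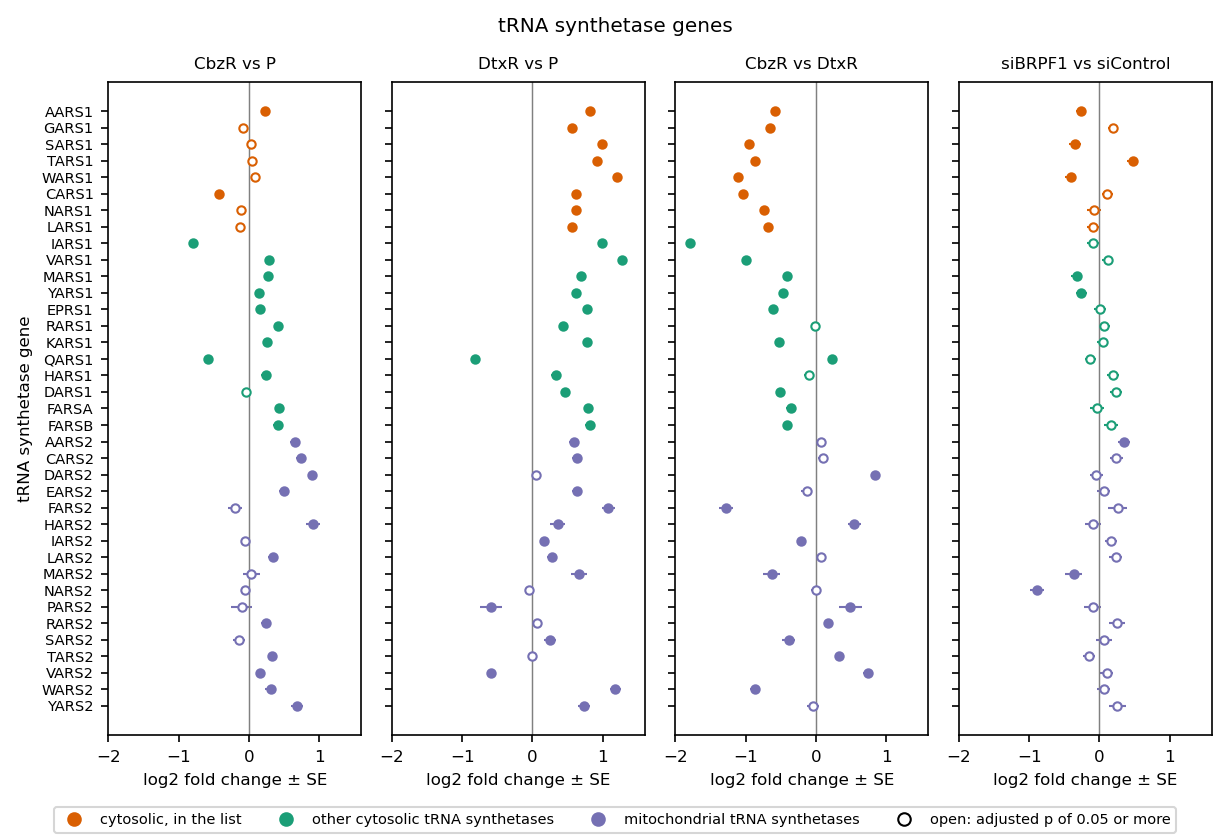
Log2 fold change ± SE of 37 tRNA synthetase genes in 4 comparisons: 8 cytosolic genes of the list (orange), 12 other cytosolic (green) and 17 mitochondrial (violet); open points did not pass an adjusted p of 0.05. Cytosolic genes other than QARS1 lie right of 0 in DtxR vs P, and the mitochondrial ones spread over both sides in CbzR vs DtxR.

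Genes upstream of ATF4 and further targets were read in the same way. Of 14 genes for eIF2alpha kinases, phosphatase subunits and eIF2 factors, Du145-DtxR had 9 higher and 3 lower, and Du145-CbzR had 8 higher and 1 lower, each against Du145-P. EIF2AK1, the heme-regulated kinase, was lower in Du145-DtxR (-0.97), with 237 ± 5.32 CPM in Du145-CbzR, 129.6 ± 3.05 CPM in Du145-DtxR and 254 ± 7.25 CPM in Du145-P (SD, n = 2 each). GCN1, which activates the kinase GCN2 on stalled ribosomes, was higher in both resistant lines (1.01 in Du145-DtxR, 0.71 in Du145-CbzR). EIF2S1, which encodes eIF2alpha, was higher in both as well (0.72 and 0.27). Between the resistant lines, 5 of the 14 were higher and 7 lower in Du145-CbzR, where 31.2% of all genes were higher and 31.8% lower. With siBRPF1, EIF2B1 (0.46) and EIF2S1 (0.25) were higher, IMPACT (-0.44) was lower and 11 were not called. The shares over all genes with siBRPF1 were 11.6% higher and 15.1% lower.

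Of 21 other genes known as targets of ATF4 or CHOP, Du145-DtxR had 17 higher and 3 lower against Du145-P, Du145-CbzR had 6 higher and 7 lower, and 19 were lower in Du145-CbzR than in the docetaxel line. The shares over all genes were 31.1 and 32.0% in Du145-DtxR, 24.4 and 26.3% in Du145-CbzR, and 31.8% lower between the resistant lines. HERPUD1, a component of ER-associated degradation, averaged 53.1 ± 0.764 CPM in Du145-CbzR, 288 ± 11.5 CPM in Du145-DtxR and 42.5 ± 1.22 CPM in Du145-P. BCAT1, the cytosolic transaminase of branched-chain amino acids, averaged 145 ± 3.48 CPM in Du145-CbzR, 629.7 ± 4.06 CPM in Du145-DtxR and 127 ± 0.783 CPM in Du145-P. Both were several times higher in Du145-DtxR than in the other lines. ALDH1L2, a mitochondrial folate enzyme, was lower in both resistant lines (-0.99 in Du145-DtxR, -2.11 in Du145-CbzR).

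The siRNA experiment asked which of these genes change when BRPF1 is lowered in Du145-DtxR. Of the 35 members, 17 were lower and 1 was higher with siBRPF1 than with siControl, where 15.1% of all genes tested were lower and 11.6% higher. The median was -0.24, and 1 member, DDIT4, fell by more than 1 on the log2 scale, as did 3.34% of all genes, while 0.490% of all genes were higher by as much. Without the second siControl library, 11 members in place of 17 were lower. Among the 31 members higher in Du145-DtxR than in parental cells, 15 were lower with siBRPF1, 1 was higher and 15 were not called (9 lower without the second siControl library). Of all 5425 genes that were higher in Du145-DtxR and tested in both experiments, 10.5% were lower and 18.3% higher with siBRPF1. As a share of all 15596 genes tested in both, 3.67% were higher in Du145-DtxR and lower with siBRPF1, beside 15 of the 35 members, and 6.37% were higher in both, beside 1 of the 35. The members were chosen with earlier results of these data known. The study's own list of genes raised in Du145-DtxR and lowered by siBRPF1 already names many of them, such as ATF4, DDIT3, TRIB3 and ASNS. The shares of the members therefore describe the list and do not test it.

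ATF4 itself had 285, 263 and 254 CPM with siBRPF1, against 484, 484 and 408 CPM with siControl. The groups did not overlap, and the log2 fold change was -0.78 (SE 0.09, adjusted p = 2.01e-04). DDIT4 had 56.8, 57.8 and 58.4 CPM with siBRPF1, against 108, 138 and 115 CPM with siControl, a log2 fold change of -1.06 (SE 0.10, adjusted p = 5.40e-05). TRIB3 had 64.5, 70.7 and 59.6 CPM with siBRPF1, against 126, 127 and 115 CPM with siControl, or -0.91 (SE 0.09, adjusted p = 7.02e-05). CHAC1 and DDIT3 were lower too, with every siBRPF1 library below every siControl library. CHAC1 averaged 23.9 ± 3.12 CPM with siBRPF1 and 42.6 ± 3.75 CPM with siControl (SD, n = 3 each), or -0.83 (SE 0.11, adjusted p = 4.36e-04) on the log2 scale. DDIT3 averaged 33.2 ± 0.683 CPM with siBRPF1 and 48.7 ± 0.560 CPM with siControl, or -0.55 (SE 0.08, adjusted p = 6.66e-04). The remaining stress regulators included ATF3, which was lower (-0.38, a call lost without the third siBRPF1 or the second siControl library at adjusted p = 0.058 and 0.070), and SESN2 (-0.24, adjusted p = 0.067), CEBPB (-0.23, adjusted p = 0.062) and ATF5 (0.34, adjusted p = 0.076), which did not pass the test.

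All 6 other amino acid enzymes were lower with siBRPF1. ASNS had 119.6, 115 and 114 CPM with siBRPF1, against 179, 189 and 179 CPM with siControl. PYCR1, the last enzyme of proline synthesis, had 173, 186 and 149 CPM with siBRPF1, against 289, 309 and 246 CPM with siControl. PCK2 had 24.2, 26.2 and 21.3 CPM with siBRPF1, against 38.1, 39.5 and 35.3 CPM with siControl. The groups did not overlap for any of the 3, and the log2 fold changes were -0.65 (SE 0.07, adjusted p = 1.85e-04) for ASNS, -0.73 (SE 0.11, adjusted p = 7.66e-04) for PYCR1 and -0.66 (SE 0.10, adjusted p = 9.25e-04) for PCK2. PCK2 was thus lower with siBRPF1 although it was not among the members raised in Du145-DtxR. CTH (-0.63), GOT1 (-0.44) and ALDH18A1 (-0.30) were lower as well; the call of ALDH18A1 was lost without the first siBRPF1 or the second siControl library (adjusted p = 0.073 and 0.077). The 120 tested neighbors of ASNS had a median of -0.02 and the 91 of PCK2 one of 0.01 in this comparison.

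Of the 5 enzymes of serine, glycine and one-carbon metabolism, 2 were lower with siBRPF1. PSAT1 (-0.25, adjusted p = 0.032) and MTHFD2 (-0.31, adjusted p = 0.017) were lower, whereas PHGDH (-0.16), PSPH (-0.04) and SHMT2 (-0.01) were not called. The call of PSAT1 was lost with any one of 5 of the 6 libraries left out, all but the third siControl library (adjusted p between 0.054 and 0.12), and that of MTHFD2 without the first or second siBRPF1 or the second siControl library (adjusted p between 0.059 and 0.074). The 3 transporters were not called, with SLC7A5 at 1177 ± 65.9 CPM with siBRPF1 and 1094 ± 45.8 CPM with siControl (SD, n = 3 each), and neither were STC2 and VLDLR. STC2, raised by 2.40 on the log2 scale in Du145-DtxR, had 189, 181 and 194 CPM with siBRPF1, against 202, 189 and 205 CPM with siControl. Its groups overlapped, and the log2 fold change was -0.08 (SE 0.08, adjusted p = 0.47).

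The synthetases did not move together with siBRPF1. WARS1 had 127, 120.5 and 124 CPM with siBRPF1, against 174, 165 and 154 CPM with siControl, a log2 fold change of -0.41 (SE 0.08, adjusted p = 0.0037). TARS1 had 597, 556 and 599 CPM with siBRPF1, against 446, 397 and 419 CPM with siControl, a log2 fold change of 0.47 (SE 0.08, adjusted p = 0.0015). The groups did not overlap for either gene, and they moved in opposite directions. SARS1, for serine, and AARS1 were lower (-0.35 and -0.26), while GARS1 (0.20), CARS1 (0.11), NARS1 (-0.08) and LARS1 (-0.09) were not called. The call of SARS1 was lost without the first siBRPF1 or the second siControl library (adjusted p = 0.061 and 0.055), and that of AARS1 without either of these or the third siBRPF1 library (adjusted p between 0.083 and 0.14). Of the other cytosolic synthetases, MARS1 (-0.32) and YARS1 (-0.26) were lower and the remaining 10 of 12 were not called. Among the mitochondrial ones, 14 of 17 were not called. Over all genes tested, 15.1% were lower and 11.6% higher, so most genes were not called in this comparison either. The mitochondrial NARS2, for asparagine, had 10.3 ± 0.880 CPM with siBRPF1 and 18.98 ± 0.392 CPM with siControl, a log2 fold change of -0.89 (SE 0.10, adjusted p = 2.13e-04). Of the 21 further ATF4 and CHOP targets, 7 were lower, among them HERPUD1 (-0.67), and 14 were not called.

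**Figure D5:**
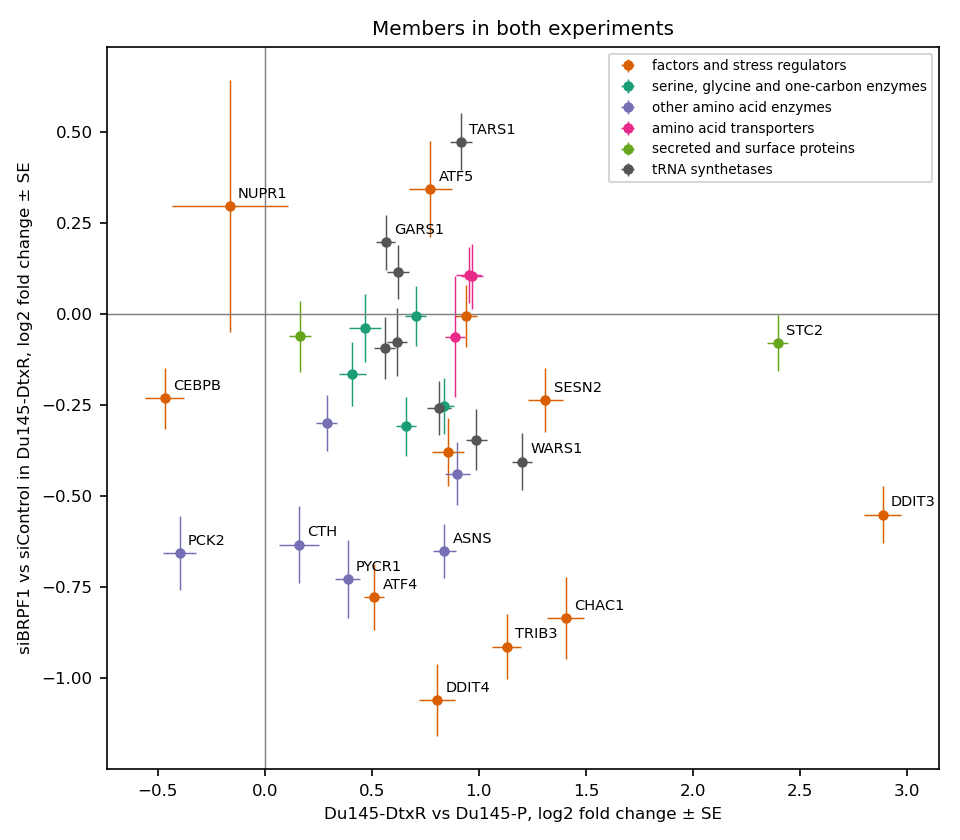
Log2 fold change ± SE of the 35 members with siBRPF1 against siControl in Du145-DtxR (vertical) and in Du145-DtxR against Du145-P (horizontal), colored by function. The lower right holds DDIT4, TRIB3, CHAC1, DDIT3 and ASNS, STC2 sits at 2.40 and -0.08, and TARS1 is at 0.92 and 0.47.

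The 9 members whose promoter window held TGATGNAA were all higher in Du145-DtxR than in parental cells and all lower in Du145-CbzR than in the docetaxel line. Of the 20 members whose window did not hold it, 17 were higher in Du145-DtxR than in parental cells and 18 lower in Du145-CbzR than in the docetaxel line. In Du145-CbzR against Du145-P, 2 of the 9 with it were higher, 3 lower and 4 not called. Of the 20 without it, 6 were higher, 8 lower and 6 not called there. With siBRPF1, 5 of the 9 were lower (ATF3, ASNS, GOT1, CHAC1 and AARS1), 1 was higher (TARS1) and 3 were not called (CARS1, SLC3A2 and NARS1), beside 11 lower and 9 not called of the 20 without it. The identical letters TGATGCAA, printed above for CHAC1 and TARS1, thus stood in the windows of genes with log2 fold changes of -0.83 and 0.47 in the siRNA experiment. Of the 6 members with these exact letters, 3 were lower, 1 was higher and 2 were not called with siBRPF1.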

How the data were processed

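RNA-seq of 12 Du145 libraries in 2 experiments was used. The authors used STAR for alignment of the paired-end reads (GRCh38, GENCODE transcripts), Salmon for quantification, tximport for sums per gene and DESeq2 for their tests; versions, library kit and strand setting are not given in the sources used here. Both deposited tables are named for TPM, but their columns hold estimated counts made by the authors, as library totals differ and 58.4 and 62.8% of values above 0 are whole. Because the unit was counts, the count test of the plan was used in place of limma.

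Estimated counts were rounded, 44 pseudoautosomal Y rows of 60660 were added to their X copies, and genes were filtered with filterByExpr, scaled by TMM and tested with edgeR 4.0.16 (quasi-likelihood, R 4.3.3), with 1 fit per experiment and Benjamini-Hochberg adjustment over all genes tested. The SE was computed as the log2 fold change over the root of the F statistic. Replicate libraries differed beyond counting noise and none was merged. Coordinates are GENCODE 44 on GRCh38, promoters RefSeq. The members, the other pathway lists and the rule for named genes (all members, BRPF1, and up to 4 genes with the smallest adjusted p per other list and comparison) were chosen with earlier results of these data known, while MARS1 in the lines and exceptions within lists were named after their values were seen. The fitting code was run on simulated counts with known changes. The simulation gave every gene the same spread and independent libraries, so it checks the code and not the calls reported here. Alternatives were the filter (none, or a mean of 1 CPM), DESeq2 1.42.0 and its size factors alone, only the groups compared, a replicate block, a fold limit, each library left out, and, chosen after seeing the data, a fit without mitochondrial transcripts. A list of marker genes in the plan is not reported here.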

Additional observations from a re-analysis of the deposited data

Results flagged for a closer look

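The resistant lines changed in opposite directions from Du145-P for 9 members of the list, and the Du145-CbzR against Du145-DtxR contrast, which tests that difference, passed an adjusted p of 0.05 by edgeR for each. Of all genes tested, 5.73% were called higher in Du145-DtxR, lower in Du145-CbzR and different between these lines, and 4.56% were called so with the directions exchanged. On the log2 scale, as Du145-CbzR against Du145-DtxR, the difference was -2.11 for ASNS, -2.04 for DDIT4, -1.89 for SESN2, -1.69 for PSAT1, -1.56 for TRIB3, -1.51 for ATF3, -1.04 for CARS1, -0.97 for PHGDH and -0.80 for PSPH. All 9 were lower in Du145-CbzR and higher in Du145-DtxR than in the parental line.

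Of the 76 other pathway genes, 5 also changed in opposite directions, where 10.3% of all genes did. IARS1 differed by -1.79 and CBS, the first enzyme of transsulfuration, by -1.12. The difference had the other sign for PRODH, the first enzyme of proline breakdown (3.47), for the mitochondrial valyl-tRNA synthetase VARS2 (0.74) and for glutamine synthetase, GLUL (0.60). All 14 tests rest on 2 libraries of each line.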

How the results depend on the processing

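Under the alternatives run, no called value of a member changed sign. With a fold limit of 1 on the log2 scale, 6 members were higher and 0 lower in Du145-DtxR against Du145-P (1206 and 2507 of all genes), 0 higher and 4 lower in Du145-CbzR (682 and 1435), 15 lower in Du145-CbzR against Du145-DtxR (2219 genes higher and 1587 lower), 0 higher and 1 lower with siBRPF1 (77 and 524), and 0 members were higher in Du145-DtxR and lower with siBRPF1. These zeros come from edgeR with the limit; DESeq2 without a limit gave 31 members higher and 2 lower in Du145-DtxR, 9 higher and 12 lower in Du145-CbzR, 31 lower between the resistant lines, and 1 higher and 17 lower with siBRPF1. The no-filter fit called 2 members higher with siBRPF1, the additional one being ATF5. By edgeR it lost the calls of PSAT1 with siBRPF1 (adjusted p = 0.062) and of VLDLR in Du145-CbzR against Du145-P (adjusted p = 0.077). The filter at a mean of 1 CPM added NUPR1 as lower in Du145-CbzR against Du145-P (adjusted p = 0.045, edgeR). The replicate block lost the call of VLDLR in Du145-CbzR (adjusted p = 0.057, edgeR).

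Same-numbered libraries were not paired by the labels. Their deviations from the group means correlated at 0.094, 0.19 and 0.39 in the siRNA experiment and between -0.037 and 0.15 in the lines. The replicate block raised the genes called higher with siBRPF1 to 3193, against 1820 without the block, and the members to 3 higher (ATF5 and GARS1 in addition) and added CEBPB, SESN2 and PHGDH to those lower; not every library correlated best with its own number.

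With each library left out in turn, members called ranged over 30 to 31 higher and 2 lower in Du145-DtxR against Du145-P, 8 to 10 higher and 12 to 13 lower in Du145-CbzR, 31 to 32 lower in Du145-CbzR against Du145-DtxR, and 1 to 2 higher and 11 to 19 lower with siBRPF1; those higher in Du145-DtxR and lower with siBRPF1 ranged over 9 to 16. Over all genes, 935 to 1988 were higher and 1468 to 2412 lower with siBRPF1, with the fewest without the first siBRPF1 or the second siControl library. Calls lost in 1 or more of these fits were those of VLDLR in Du145-DtxR; VLDLR, SLC3A2 and PSPH in Du145-CbzR; ATF5 between the resistant lines; and ATF3, PSAT1, MTHFD2, ALDH18A1, AARS1 and SARS1 with siBRPF1. With 2 libraries a line and 3 an siRNA, small differences such as those of VLDLR are at the limit of what these data resolve, and NUPR1, under 2 CPM, has few counts.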

Other observations

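Some enzymes of amino acid metabolism outside the list changed more than its members did. ASS1, which makes argininosuccinate for arginine synthesis, had 17.1 and 19.2 CPM in Du145-CbzR, 20.3 and 15.5 CPM in Du145-DtxR and 149 and 156 CPM in Du145-P. Both resistant lines were low, with log2 fold changes of -3.09 (SE 0.10, adjusted p = 1.87e-10) in Du145-DtxR and -3.07 (SE 0.09, adjusted p = 3.61e-10) in Du145-CbzR by edgeR, and the difference between them did not pass the test (0.02, adjusted p = 0.88). With the knockdown it had 11.3, 11.96 and 12.8 CPM with siBRPF1, against 35.2, 38.7 and 32.4 CPM with siControl, a log2 fold change of -1.56 (SE 0.10, adjusted p = 9.36e-06). PRODH had 18.1 and 16.6 CPM in Du145-CbzR, 1.98 and 1.15 CPM in Du145-DtxR and 11.4 and 12.9 CPM in Du145-P. It was low in Du145-DtxR and not in Du145-CbzR, with a log2 fold change of -2.95 (SE 0.18, adjusted p = 4.28e-08) there and 0.52 (SE 0.12, adjusted p = 0.0045) in Du145-CbzR. Of the 12 amino acid enzymes outside the list, 7 were higher and 5 lower in Du145-DtxR against Du145-P, and 5 were higher and 3 lower with siBRPF1. Over all genes tested, 31.1% were higher and 32.0% lower in Du145-DtxR, and 11.6% were higher and 15.1% lower with siBRPF1.

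Docetaxel-resistant cells are present in both experiments, and some members stood at other levels in each. SLC7A11 had 56.2, 58.8 and 84.9 CPM with siControl, and 307 and 311 CPM in the Du145-DtxR libraries of the first experiment. SLC7A5 went the other way, with 1084, 1144 and 1053 CPM with siControl and 658 and 619 CPM in the first experiment. SESN2 was at 85.2, 87.2 and 83.6 CPM with siControl and at 50.8 and 43.9 CPM in the first experiment. The experiments were scaled apart, the second involved transfection, and these levels were not tested against each other.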
